A study of Mus musculus with 6 samples.

Results

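The genes described here are 35 enzymes and regulators of cholesterol and fatty acid synthesis in mouse skin. They were listed by name and role in the pathway, and were found in the count table through the Ensembl identifiers of the GENCODE M21 annotation of GRCm38. All 35 were present among the 26579 genes of the table, and all 35 passed the filter on low counts, leaving none untested. They fall into 17 enzymes of the sterol arm, 5 genes that control or transport sterols, and 13 enzymes of the fatty acid arm. RNA was sequenced from whole biopsies of dorsal neck skin of 3 YAP2-5SA-∆C female mice (TG) and 3 wild type female littermates (WT), all at postnatal day 33. The TG mice carry a mildly active mutant of YAP, a transcriptional co-activator of the Hippo pathway, in basal keratinocytes positive for Keratin5/14, and WT mice carry no transgene. The biopsies were taken at the early onset of the visible skin phenotype, so that epidermis, hair follicles, sebaceous glands, dermis and fat were measured together. Replicate numbers name separate mice.

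Cholesterol is built from acetyl-CoA through mevalonate and squalene, and fatty acids are built from the same precursor by carboxylation, repeated condensation, elongation and desaturation. Both arms are controlled by the SREBP transcription factors, which are carried by the escort protein SCAP from the endoplasmic reticulum when sterols are low and are held there by INSIG proteins when sterols are high. In skin these pathways supply the lipids of the epidermal permeability barrier and of sebum.

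Total counts ranged from 11225705 to 19505036 per library, the lowest total being that of WT replicate 3. Levels are given as CPM, the counts of a gene relative to the library's total after scaling by its TMM factor. Fold changes (log2, TG against WT), their standard errors and FDR values (Benjamini-Hochberg adjusted p-values over all 15102 genes tested, threshold 0.05) come from edgeR's quasi-likelihood test. *Yap1*, the gene whose mutant form was introduced, had 125 to 144 CPM in the 6 libraries and a log2 fold change of 0.06 ± 0.07 (SE), FDR = 0.635. Whether reads of the transgene could be counted on this gene is not given in the sources used here.

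Of the 35 members, 31 had a log2 fold change above 0, against 47.6% of all genes tested, and the median was 0.43 against -0.01 for all genes. After adjustment over all genes, 3 of the 35 rose (*Acat2*, *Elovl6* and *Elovl7*) and 0 fell, where 1.91% of all genes tested were called, 1.44% higher and 0.464% lower. A further 25 members had an unadjusted p below 0.05 without passing the adjusted threshold, which makes 28 of 35 against 26.3% of all genes. At an FDR threshold of 0.1, an alternative chosen after seeing the data, 19 members were higher and 2 were lower, where 7.26% and 5.74% of all genes were. The other tests differed in how many members they called. The likelihood-ratio test of edgeR called 14 members higher and 1 lower, where it called 10.4% of all genes (5.52% higher and 4.87% lower). DESeq2 called 21 higher and 2 lower, where it called 10.7% (6.48% and 4.26%). Shares for DESeq2 are given here and below over the 14807 genes to which it gave an adjusted p-value. Voom called the same 3 members as the quasi-likelihood test, all higher, where it called 1.65% of all genes (1.23% higher and 0.417% lower).

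**Figure D1:**
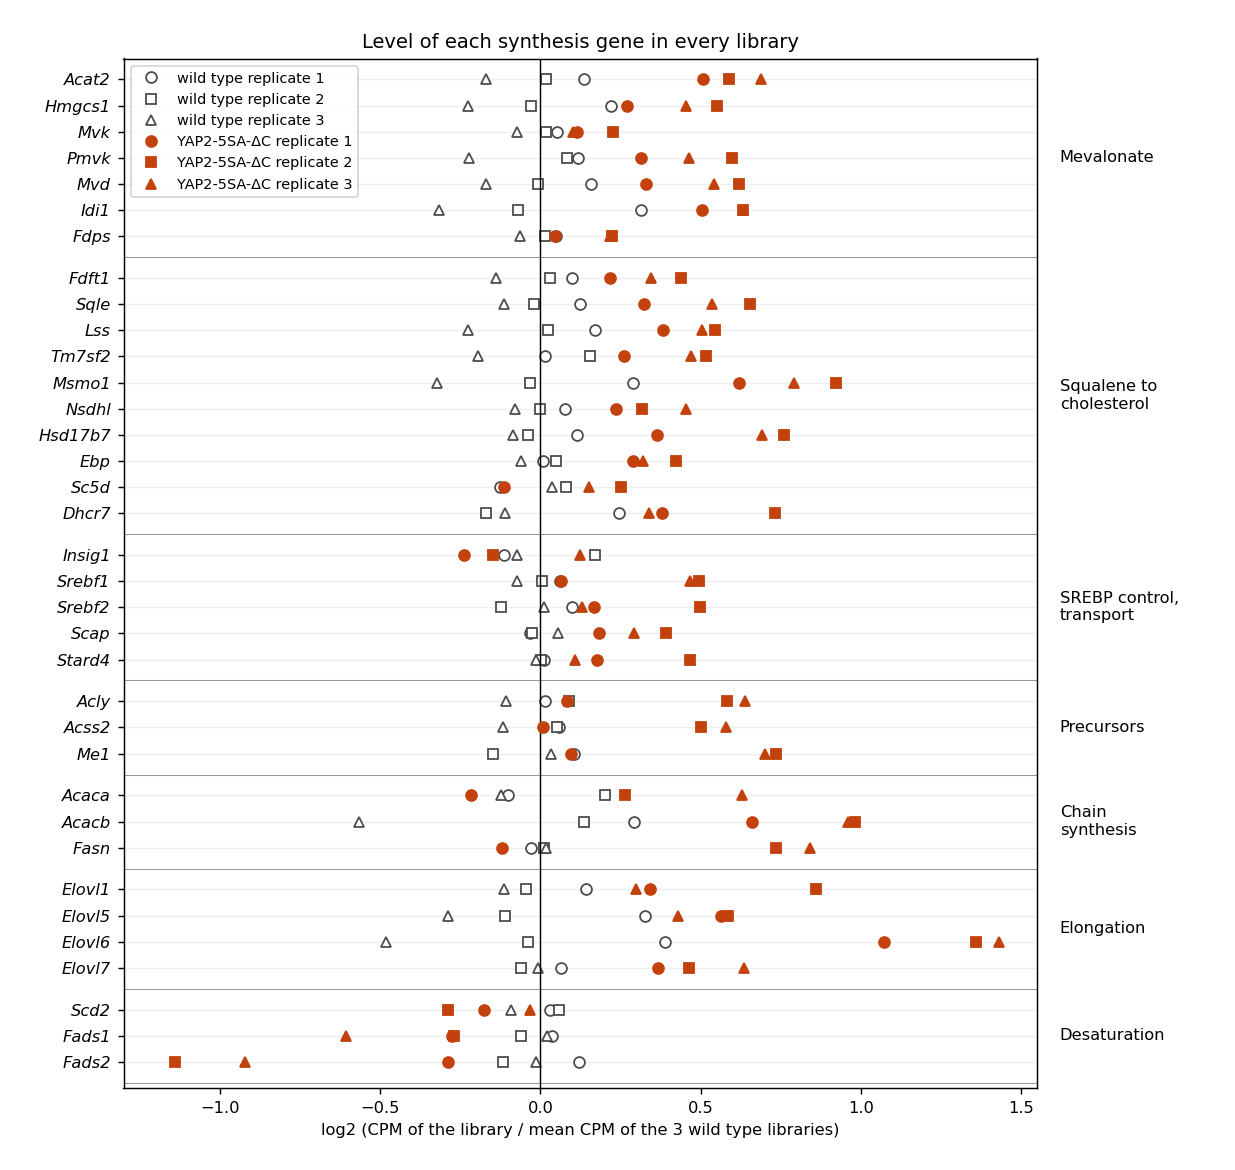
Level of each of the 35 genes in every library, plotted on the x axis as the log2 ratio of its CPM to the mean CPM of the 3 WT libraries. Open symbols are WT and filled symbols TG, with the symbol shape giving the replicate. In 24 genes every TG library sits above every WT library, against 15.5% of all genes tested. In Fads1 and Fads2 every TG library sits below, an arrangement found in 18.2% of all genes tested.

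All 17 sterol enzymes had log2 fold changes above 0, from 0.10 for *Sc5d* to 0.79 for *Msmo1*, with a median of 0.46. In 15 of the 17 the TG libraries lay above the WT libraries without overlap, an arrangement found in 15.5% of all genes tested. The summed level of the arm was 1415, 1247 and 1108 CPM in WT replicates 1 to 3 and 1574, 1875 and 1771 CPM in TG replicates 1 to 3, or 1257 ± 154 CPM in WT and 1740 ± 153 CPM in TG (SD, n = 3 each). Only *Acat2* passed the threshold in the quasi-likelihood test, which called 1.44% of all genes higher, and 12 further sterol enzymes had FDR values between 0.05 and 0.1. The likelihood-ratio test called 8 of the 17 higher and DESeq2 called 13, where they called 5.52% and 6.48% of all genes higher.

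Among the enzymes that lead from acetyl-CoA to farnesyl diphosphate, *Acat2* (ENSMUSG00000023832, chr17:12942890-12960747 on GRCm38, minus strand) encodes the cytosolic thiolase that joins the first acetyl-CoA units. It had 37.4, 34.5 and 30.3 CPM in the WT libraries and 48.4, 51.2 and 54.9 CPM in the TG libraries. Every TG library was above every WT library. The gene rose 1.51-fold (log2 fold change 0.60 ± 0.09, SE; FDR = 0.0414). The FDR was 0.178 without WT replicate 2, 0.135 without WT replicate 3, 0.0644 without TG replicate 1 and 0.0906 without TG replicate 3, with log2 fold changes of 0.53 to 0.67 over all 6 fits that left out a library. The isomerase gene *Idi1* had the next largest fold change of this stretch, 0.59 ± 0.15 (FDR = 0.0722), followed by the decarboxylase gene *Mvd* (0.50 ± 0.11, FDR = 0.0620), the phosphomevalonate kinase gene *Pmvk* (0.46 ± 0.11, FDR = 0.0687) and the HMG-CoA synthase gene *Hmgcs1* (0.43 ± 0.13, FDR = 0.0942). The smallest differences were those of the mevalonate kinase gene *Mvk* (0.15 ± 0.07) and the farnesyl diphosphate synthase gene *Fdps* (0.16 ± 0.07), whose FDR values were 0.221 and 0.191. *Fdps* was the only gene of this stretch in which the genotypes overlapped, TG replicate 1 having 87.3 CPM against 87.5 CPM in WT replicate 1.

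From squalene to cholesterol, 9 of 10 enzymes had higher CPM in every TG library than in any WT library, against 15.5% of all genes tested. In the quasi-likelihood test 0 passed the threshold and 9 had an unadjusted p below 0.05, against 26.3% of all genes. The likelihood-ratio test called 4 higher and DESeq2 called 8, where they called 5.52% and 6.48% of all genes higher. The lowest p-value was that of *Hsd17b7*, the reductase of the complex that removes methyl groups from lanosterol, with 56.9, 51.2 and 49.5 CPM in WT and 67.6, 89.0 and 84.9 CPM in TG. The genotypes did not overlap, and WT replicate 1 and TG replicate 1 were the nearest libraries of the groups. Its log2 fold change was 0.61 ± 0.11, with FDR = 0.0504. The other members of that complex were *Msmo1*, the methyl oxidase, and *Nsdhl*, the decarboxylating dehydrogenase. *Msmo1*, singled out after its values were seen as the largest fold change of the arm, had 171, 137 and 112 CPM in WT and 215, 265 and 242 CPM in TG, a log2 fold change of 0.79 ± 0.16 with FDR = 0.0530. *Nsdhl* had a log2 fold change of 0.34 ± 0.08 (FDR = 0.0657). The squalene epoxidase gene *Sqle* (0.51 ± 0.10, FDR = 0.0530), the lanosterol synthase gene *Lss* (0.48 ± 0.11, FDR = 0.0612) and the sterol isomerase gene *Ebp* (0.35 ± 0.07, FDR = 0.0530) were also near the threshold.

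The remaining sterol enzymes were farther from it. The squalene synthase gene *Fdft1* had a log2 fold change of 0.34 ± 0.09 (FDR = 0.0743), the reductase gene *Dhcr7*, which makes cholesterol from its immediate precursor, 0.49 ± 0.15 (FDR = 0.0973), and the sterol reductase gene *Tm7sf2* 0.41 ± 0.13 (FDR = 0.101). The desaturase gene *Sc5d*, which acts just before *Dhcr7*, had 47.4 to 54.7 CPM in WT and 47.8 to 61.5 CPM in TG, overlapping ranges, and a log2 fold change of 0.10 ± 0.11 (FDR = 0.570). *Fdft1* overlaps *Ctsb*, a highly counted gene on the opposite strand, and *Tm7sf2* overlaps *Vps51* on the same strand, so that reads of these pairs may be shared. *Srebf1*, *Scap*, *Acss2*, *Me1* and *Elovl1* also have exons that overlap those of a gene on the opposite strand.

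**Figure D2:**
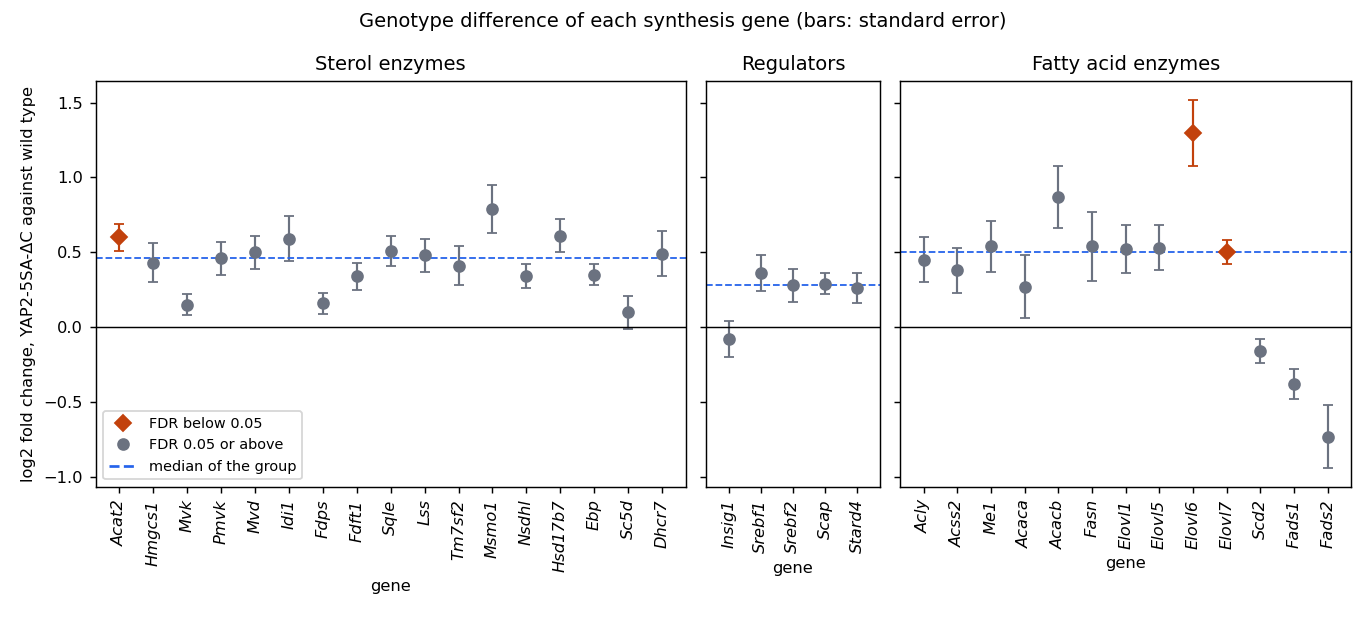
Log2 fold change of each gene, TG against WT, from edgeR's quasi-likelihood test, with its standard error as a bar. Diamonds mark Acat2, Elovl6 and Elovl7, the 3 genes past the FDR threshold of 0.05, and the dashed line is the median of each group of genes, 0.46, 0.28 and 0.50 from left to right.

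The order of the libraries within a genotype was much the same from sterol enzyme to sterol enzyme. WT replicate 1 was the highest WT library in 14 of the 17 genes and WT replicate 3 the lowest in 15. TG replicate 1 was the lowest TG library in 15 of the 17 and TG replicate 2 the highest in 14. WT replicate 3 is also the library with the fewest counts. The median log2 fold change of the arm was 0.37 without it and 0.38 to 0.56 without any other single library.

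Of the 5 genes that control SREBP activity or move sterols, 0 passed the threshold in the quasi-likelihood test. An unadjusted p below 0.05 was seen in 4 of them, against 26.3% of all genes tested. DESeq2 called 1 higher, *Scap*, and the likelihood-ratio test called 0, where they called 6.48% and 5.52% of all genes higher. The median log2 fold change of the 5 genes was 0.28. The lowest p-value was that of *Scap*, which encodes the sterol-sensing escort of the SREBPs, with 65.9, 66.2 and 70.0 CPM in WT and 76.4, 88.3 and 82.5 CPM in TG. The genotypes did not overlap, and the log2 fold change was 0.29 ± 0.07 (FDR = 0.0660). *Srebf1*, whose products mainly drive fatty acid genes, had a log2 fold change of 0.36 ± 0.12 (FDR = 0.12), and *Srebf2*, whose product mainly drives sterol genes, 0.28 ± 0.11 (FDR = 0.176). *Stard4*, which encodes a carrier of cholesterol between membranes, had 38.5 to 39.2 CPM in WT and 41.9 to 53.7 CPM in TG, with a log2 fold change of 0.26 ± 0.10 (FDR = 0.159).

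*Insig1*, which encodes the protein that retains SCAP and is itself a well-known SREBP target, did not share the direction of the sterol enzymes. Singled out after its values were seen, it had 134, 163 and 138 CPM in WT and 123, 131 and 158 CPM in TG. The ranges overlapped, the lowest library being TG replicate 1 and the highest WT replicate 2. Its log2 fold change was -0.08 ± 0.12 (FDR = 0.708), and it was 0.02 without TG replicate 1 and 0.01 without WT replicate 2.

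The fatty acid arm was less uniform than the sterol arm. Of its 13 enzymes, 10 had log2 fold changes above 0 and the median was 0.50, with a range from -0.73 for *Fads2* to 1.30 for *Elovl6*. In 5 enzymes every TG library was above every WT library, against 15.5% of all genes tested. In 2 every TG library was below, against 18.2%, and in 6 the genotypes overlapped. *Elovl6* and *Elovl7* rose and 0 fell in the quasi-likelihood test, where 1.44% and 0.464% of all genes did. The likelihood-ratio test called 6 higher and 1 lower, against 5.52% and 4.87% of all genes. DESeq2 called 7 higher and 2 lower, against 6.48% and 4.26%. TG replicate 1 was at or below the highest WT library in 8 of the 13 enzymes, against 3 of 13 for each of the other TG libraries.

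The enzymes that supply the precursors showed that split between the TG mice. *Me1*, the malic enzyme gene whose product makes NADPH, had the lowest p-value of the group, with 161, 135 and 153 CPM in WT and 160, 249 and 243 CPM in TG. TG replicate 1 lay within the WT range and the other TG libraries lay above it. The log2 fold change was 0.54 ± 0.17 (FDR = 0.110). Without TG replicate 1 it was 0.74 (FDR = 0.0482), and the 6 fits that left out a library ranged from 0.45 to 0.74 with FDR values of 0.0482 to 0.291. *Acly*, which encodes the ATP citrate lyase that makes cytosolic acetyl-CoA from citrate, had a log2 fold change of 0.45 ± 0.15 (FDR = 0.114). *Acss2*, which encodes the acetyl-CoA synthetase that uses acetate, had 0.38 ± 0.15 (FDR = 0.156). In both, TG replicate 1 was again within the WT range.

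For chain synthesis, summed CPM of *Acaca*, *Acacb* and *Fasn* was 1456, 1563 and 1446 in WT and 1391, 2315 and 2580 in TG. TG replicate 1 had the lowest sum of all 6 libraries and the other TG libraries the highest. *Fasn*, which encodes the fatty acid synthase and was singled out after its values were seen, had 1003, 1032 and 1035 CPM in WT and 941, 1703 and 1834 CPM in TG. The WT libraries lay close together, TG replicate 1 was below all of them, and the other TG libraries were far above. The log2 fold change of *Fasn* was 0.54 ± 0.23 (FDR = 0.193). Without TG replicate 1 it was 0.81 (FDR = 0.0482), without TG replicate 2 it was 0.46 (FDR = 0.361) and without TG replicate 3 it was 0.37 (FDR = 0.371). *Acaca*, the cytosolic acetyl-CoA carboxylase gene, also had TG replicate 1 lowest of all libraries, at 341 CPM, and a log2 fold change of 0.27 ± 0.21 (FDR = 0.444).

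*Acacb*, the gene of the mitochondrial acetyl-CoA carboxylase, whose product mainly restrains fatty acid oxidation, was different. It had 84.4, 75.8 and 46.6 CPM in WT and 109, 136 and 134 CPM in TG, with no overlap. Its log2 fold change was 0.87 ± 0.21, with FDR = 0.0668.

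Elongation held the member with the largest fold change. *Elovl6* (ENSMUSG00000041220, chr3:129532355-129638495 on GRCm38, plus strand) encodes the elongase that lengthens palmitate and palmitoleate. It had 583, 433 and 319 CPM in WT and 935, 1141 and 1200 CPM in TG. The lowest TG library was well above the highest WT library. The gene rose 2.45-fold (log2 fold change 1.30 ± 0.22, SE; FDR = 0.0437). Its FDR was 0.186 without WT replicate 2, 0.132 without WT replicate 3, 0.0677 without TG replicate 1 and 0.0906 without TG replicate 3, and the log2 fold change stayed between 1.11 and 1.54 in the 6 fits that left out a library.

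*Elovl7* (ENSMUSG00000021696, chr13:108214404-108285683, plus strand), an elongase gene of saturated very long chains, had 120, 110 and 114 CPM in WT and 148, 158 and 178 CPM in TG. The genotypes did not overlap, and the WT libraries lay close together. The gene rose 1.41-fold (log2 fold change 0.50 ± 0.08, SE; FDR = 0.0436). The FDR of *Elovl7* was below the threshold without TG replicate 2 (0.0236), and was 0.0640, 0.186 and 0.144 without WT replicates 1, 2 and 3 and 0.0523 and 0.0906 without TG replicates 1 and 3. *Elovl1*, an elongase gene of saturated and monounsaturated very long chains, had a log2 fold change of 0.52 ± 0.16 (FDR = 0.0989), and *Elovl5*, an elongase gene of polyunsaturated chains, 0.53 ± 0.15 (FDR = 0.0916). Both had every TG library above every WT library. This held for 4 of 4 elongases of the list, against 15.5% of all genes tested. Their summed level was 991, 772 and 642 CPM in WT and 1417, 1698 and 1692 CPM in TG.

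**Figure D3:**
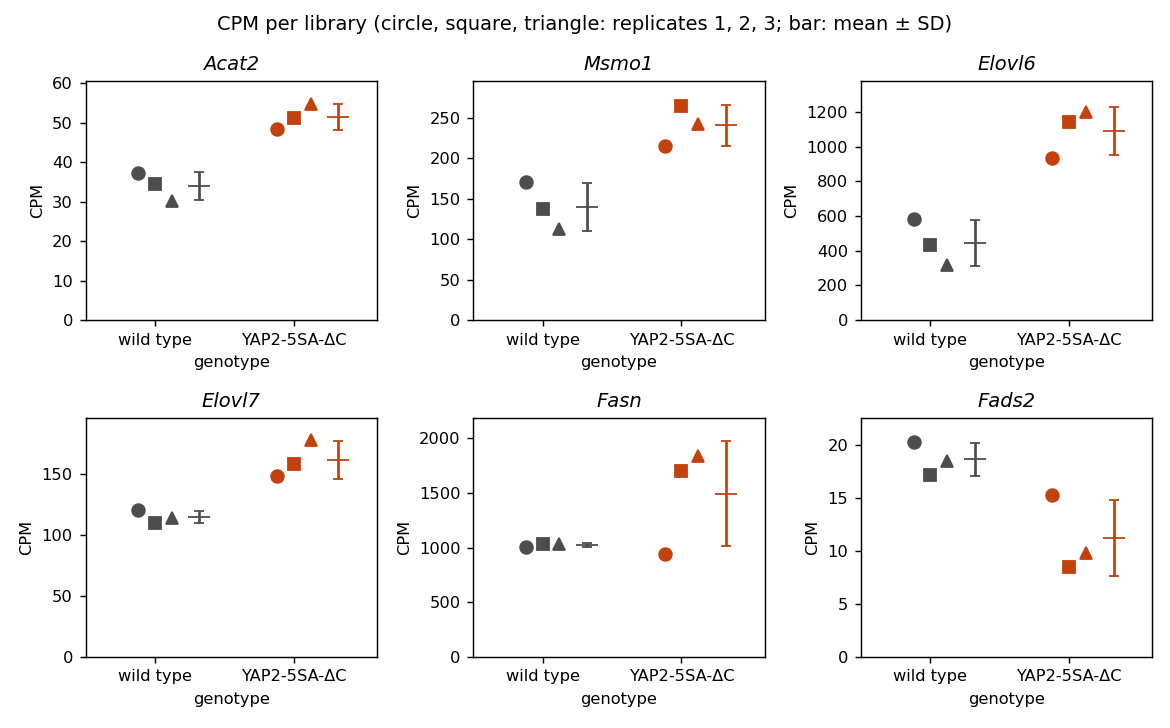
CPM of Acat2, Msmo1, Elovl6, Elovl7, Fasn and Fads2 in each library, with the mean and SD of each genotype (n = 3) as a bar and each axis starting at 0. The TG libraries are above the WT libraries in the first 4 genes, TG replicate 1 is below every WT library in Fasn, and the TG libraries are below the WT libraries in Fads2.

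The 3 desaturases of the list had log2 fold changes below 0. In the quasi-likelihood test 0 of 3 passed the threshold and 2 had an unadjusted p below 0.05, against 26.3% of all genes tested. DESeq2 called *Fads1* and *Fads2* lower and the likelihood-ratio test called *Fads2* lower, where they called 4.26% and 4.87% of all genes lower. *Fads1*, which encodes the delta-5 desaturase of polyunsaturated fatty acids, had the lowest p-value, with 36.4, 34.0 and 36.0 CPM in WT and 29.3, 29.4 and 23.3 CPM in TG. The TG libraries were below the WT libraries without overlap, with a log2 fold change of -0.38 ± 0.10 (FDR = 0.0813). *Fads2*, the neighbouring gene, whose product acts before that of *Fads1* on the same fatty acids, had 20.3, 17.2 and 18.5 CPM in WT and 15.3, 8.47 and 9.86 CPM in TG. The genotypes of *Fads2*, given after its values were seen, did not overlap either, and its log2 fold change was -0.73 ± 0.21 (FDR = 0.0926), with -1.0 (FDR = 0.0482) without TG replicate 1 and -0.55 (FDR = 0.146) without TG replicate 2. *Scd2*, which encodes a stearoyl-CoA desaturase that makes monounsaturated chains, had 302 to 335 CPM in WT and 264 to 315 CPM in TG and a log2 fold change of -0.16 ± 0.08 (FDR = 0.259).

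Levels were compared between genes only per length, as CPM per kilobase of exon. Among the sterol enzymes *Hmgcs1* was the most abundant in WT skin, at 79.9 ± 12.5 CPM per kilobase (SD, n = 3), followed by *Idi1* at 26.1 ± 5.81 and *Msmo1* at 22.8 ± 4.79. The last pair differed by less than the spread between mice. *Tm7sf2* was the least abundant, at 1.95 ± 0.235, a level left uncertain by the overlap of its exons with those of *Vps51* on the same strand. In the fatty acid arm *Fasn* led in WT skin at 93.5 ± 1.65 CPM per kilobase, ahead of *Elovl6* at 69.2 ± 20.6 and *Acly* at 67.1 ± 4.57, and these last 2 again differed by less than their spread. In TG skin *Elovl6* had the highest mean of all members, 170 ± 21.7 CPM per kilobase, against 136 ± 44.1 for *Fasn*, a difference within the spread of *Fasn*. *Fads2* had 5.66 ± 0.468 in WT and 3.40 ± 1.09 in TG, and in WT it differed from *Acss2*, at 5.81 ± 0.392, by less than the spread between mice.

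**Figure D4:**
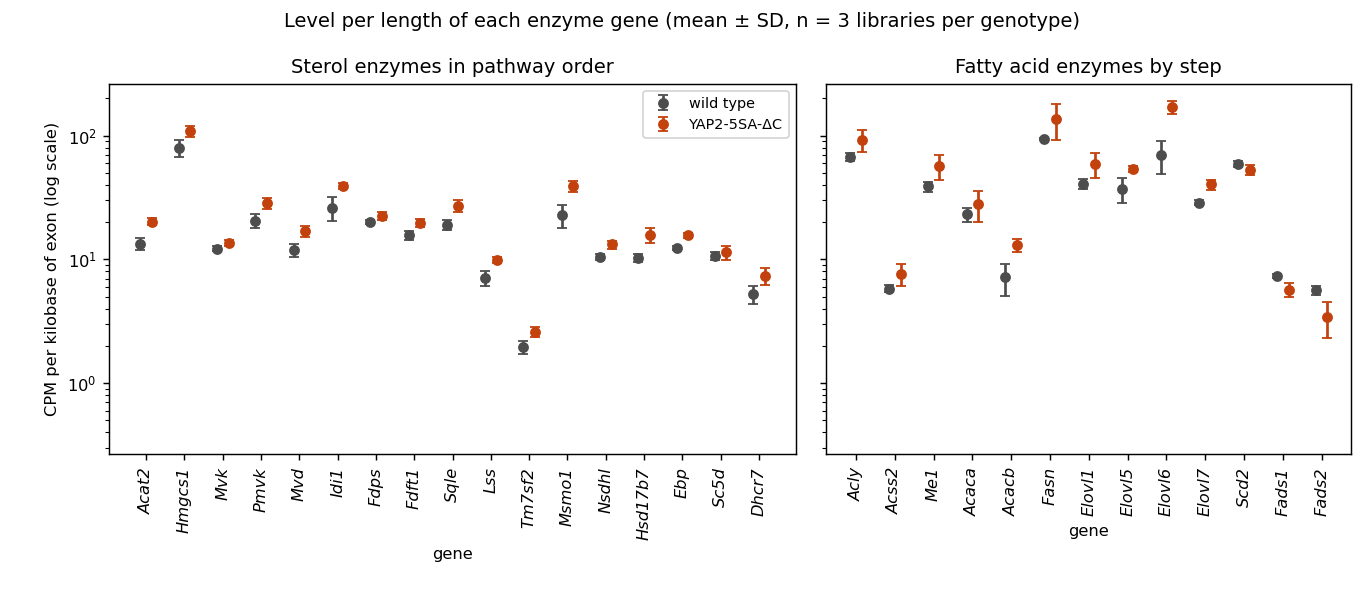
CPM per kilobase of exon on a log axis for the sterol enzymes in pathway order and the fatty acid enzymes by step, as the mean and SD of 3 libraries per genotype. Hmgcs1, at 79.9 CPM per kilobase in WT, stands above the other sterol enzymes, and Elovl6 has the highest TG mean, 170.

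Promoter sequences were looked at for motifs that the members might share. RefSeq windows of 300 bases (250 before to 50 after a transcript start, GRCm38.p6) matched 29 of the 35 members and gave 37 windows, and none was used for *Fdft1*, *Scd2*, *Fdps*, *Fads1*, *Sqle* and *Stard4*. Both strands were searched for exact letters, and no motif is contained in another. The CCAAT box (CCAAT), bound by NF-Y, was in 24 of 37 member windows, 64.9%, against 37.4% of all 32851 windows. The GC box (GGGCGG), bound by Sp1, was in 27 of 37, 73.0% against 35.7%. Both factors are known partners of SREBPs. The E-box CACGTG, which SREBP1 can also bind, was in 7 of 37, 18.9% against 7.15%, and GGAATG, the core letters bound by the TEAD partners of YAP, was in 2 of 37, 5.41% against 14.7%. The sterol regulatory element, searched as TCACNCCAC, was in 1 of 37, 2.70% against 1.24%. These are counts of letters, windows of the same gene can overlap, and no binding was measured.

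The following stretches, with the motif in capitals, are shown because they belong to the members called higher, to the most abundant sterol enzyme, to the sterol regulator that did not share the direction of the enzymes, to the later sterol enzyme with the lowest p-value and to the TEAD letters. They are, in order, the GC box of *Acat2* (chr17:12960743-12960768, printed on the plus strand, opposite to the gene), the GC box nearest the start of *Elovl7* (chr13:108214377-108214402, minus strand, opposite to the gene), the sterol regulatory element of *Hmgcs1* (chr13:119690204-119690232, plus strand), the E-boxes of *Insig1* (chr5:28071301-28071326, plus strand) and *Hsd17b7* (chr1:169969333-169969358, minus strand), and the TEAD letters of *Me1* (chr9:86687316-86687341, plus strand, opposite to the gene).
Acat2: gtgctgggggGGGCGGagctatggcc
Elovl7: aggctgcgagGGGCGGaggcggtagg
Hmgcs1: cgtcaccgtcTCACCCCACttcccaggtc
Insig1: tgggtgaggtCACGTGgctccggtgg
Hsd17b7: acccttgtgtCACGTGgctccgcccc
Me1: cacctgcccaGGAATGgcacctctat
The *Me1* stretch belongs to a window at a transcript start inside the gene, far from its outermost start at position 86695953. The window of *Elovl6*, the member with the largest fold change, held none of the 5 motifs. Only the letters in these windows were read, and the difference in motif share between members and all windows was not tested.

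Genes next to the members in the pathways were taken from lists written down by function, and their counts stand beside the 1.91% of all genes tested that were called in the quasi-likelihood test and the 26.3% with an unadjusted p below 0.05. DESeq2 called 10.7% of all genes. Of 18 further genes of SREBP and LXR control, 0 passed the threshold in edgeR's quasi-likelihood test, 2 had an unadjusted p below 0.05, and DESeq2 called 1. Their median log2 fold change was 0.03. The lowest p-values were those of *Mid1ip1*, which encodes an activator of acetyl-CoA carboxylase (log2 fold change 0.43 ± 0.10, FDR = 0.0635), and of *Rxra*, a nuclear receptor gene (0.23 ± 0.09, FDR = 0.161). Of 15 tested genes of cholesterol handling, *Soat1* rose and 0 fell in the same test, with a median of 0.17. *Soat1* encodes the enzyme that esterifies cholesterol for storage, and its CPM was 201, 159 and 125 in WT and 301, 330 and 297 in TG (log2 fold change 0.94 ± 0.16, FDR = 0.0450). *Mylip*, whose product degrades lipoprotein receptors and is an LXR target, had a log2 fold change of -0.32 ± 0.09 (FDR = 0.0864).

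Of 16 tested further genes of fatty acid synthesis and activation, 2 rose and 0 fell in the quasi-likelihood test, 11 had an unadjusted p below 0.05, and the median was 0.35. The likelihood-ratio test called 5 higher and 2 lower, against 5.52% and 4.87% of all genes. DESeq2 called 8 higher and 2 lower, against 6.48% and 4.26%. *Acsl5*, an acyl-CoA synthetase gene, had 187, 159 and 149 CPM in WT and 231, 261 and 248 CPM in TG (log2 fold change 0.58 ± 0.10, FDR = 0.0437). *Hacd2*, which encodes the dehydratase of the elongation cycle, had 54.5, 38.3 and 38.3 CPM in WT and 73.1, 89.5 and 79.4 CPM in TG (log2 fold change 0.88 ± 0.15, FDR = 0.0451). In both genes every TG library was above every WT library. *Elovl4*, the elongase gene of the ultra long chains of barrier lipids, given here after its values were seen, had 728, 455 and 418 CPM in WT and 982, 1265 and 1169 CPM in TG, with a log2 fold change of 1.09 ± 0.22 and FDR = 0.0533. WT replicate 1 was the highest WT library in each of these genes, as in *Elovl6*. The opposite direction was seen in *Acsl3*, another acyl-CoA synthetase gene, and *Fads3*, a desaturase-like gene beside *Fads1* and *Fads2*, also given after their values were seen. *Acsl3* had 64.7, 79.9 and 83.5 CPM in WT and 48.2, 31.9 and 50.9 CPM in TG (log2 fold change -0.80 ± 0.18, FDR = 0.0626). *Fads3* had 67.4, 90.4 and 82.3 CPM in WT and 47.4, 28.6 and 58.9 CPM in TG (log2 fold change -0.83 ± 0.25, FDR = 0.0982). In both, every TG library was below every WT library.

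Markers of the cell types in a whole skin biopsy also differed between the genotypes, and they are given here beside the synthesis genes. None of the listed genes was at 0 in any library. Among all genes tested, 1.44% were called higher in the quasi-likelihood test, 5.52% in the likelihood-ratio test and 6.48% in DESeq2. Of 10 sebaceous gland markers, 9 had log2 fold changes above 0 with a median of 0.70, and 1, the lipid droplet gene *Plin2*, rose in the quasi-likelihood test (0.68 ± 0.12, FDR = 0.0437). The likelihood-ratio test and DESeq2 each called 6 of the 10 higher, and in 7 of the 10 the TG libraries lay above the WT libraries without overlap, against 15.5% of all genes tested. Their summed level was 968 to 1363 CPM in WT and 1723 to 2121 CPM in TG, with WT replicate 3 the lowest WT library in 10 of 10 genes. Of 6 basal keratinocyte markers, 6 had log2 fold changes above 0 with a median of 0.56, and *Krt14* rose in the quasi-likelihood test (0.95 ± 0.11, FDR = 0.0300), where the likelihood-ratio test called 3 higher and DESeq2 called 5, with sums of 3318 to 4060 CPM in WT and 5592 to 7220 CPM in TG. Of 7 suprabasal keratinocyte markers 1 rose (*Calm4*), where the likelihood-ratio test called 2 higher and DESeq2 called 3, with sums of 5275 to 6291 and 6830 to 11769 CPM.

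Adipocyte markers did not follow the genotype, with 0 of 10 called in edgeR's quasi-likelihood test, none at an unadjusted p below 0.05 and none by DESeq2, a median log2 fold change of 0.04, and sums of 1283 to 1702 CPM in WT and 1178 to 1793 CPM in TG. The order of the libraries within a genotype also differed between marker lists. TG replicate 1 was the lowest TG library in 9 of 10 adipocyte markers, 7 of 10 sebaceous gland markers and 3 of 6 basal keratinocyte markers. WT replicate 1 was the highest WT library in 6 of 6 basal keratinocyte markers, 7 of 10 sebaceous gland markers and 0 of 10 adipocyte markers, and TG replicate 2 was the highest TG library in 6, 1 and 1 of them. Hair follicle markers, with 8 of 8 genes below WT in every TG library (18.2% of all genes tested) and sums of 12169 to 15520 CPM in WT, had 6395, 1300 and 8273 CPM in TG replicates 1 to 3. In the quasi-likelihood test 0 of these 8 passed the threshold and 7 had an unadjusted p below 0.05, against 26.3% of all genes. The likelihood-ratio test called 7 lower and DESeq2 called 1, where they called 4.87% and 4.26% of all genes lower. The part that sebaceous, keratinocyte, fat or hair follicle content has in the levels of the synthesis genes was not tested. In these bulk samples, fewer cells of a type and less RNA per cell cannot be told apart, and the same holds for more cells and more RNA.

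**Figure D5:**
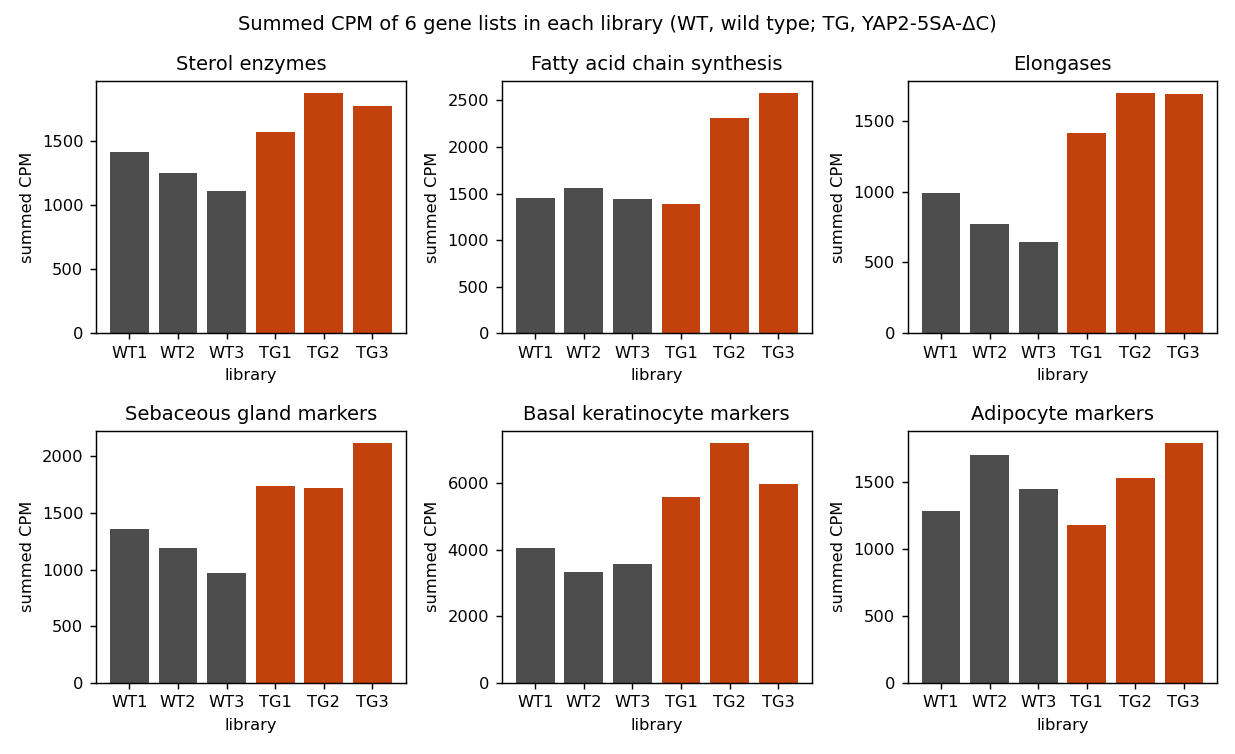
Summed CPM of 3 groups of synthesis genes and 3 marker lists in each library, WT in grey and TG in orange, with each axis starting at 0. The sterol enzymes, elongases, sebaceous gland markers and basal keratinocyte markers are higher in every TG library, whereas chain synthesis and adipocyte markers have TG replicate 1 lowest of all 6 libraries.

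Among the other cell types listed, 2 of 7 macrophage markers rose in the quasi-likelihood test (*Csf1r* and *Mrc1*), where the likelihood-ratio test called 3 higher and DESeq2 called 5, with sums of 380 to 454 CPM in WT and 537 to 610 CPM in TG. Of 6 mast cell markers 2 rose (*Cma1* and *Hdc*), where the likelihood-ratio test and DESeq2 each called 5 higher, with sums of 159 to 178 CPM in WT and 209 to 258 CPM in TG. Of 5 melanocyte markers 2 fell in the quasi-likelihood test (*Dct* and *Tyrp1*), the likelihood-ratio test and DESeq2 each called 5 lower, and sums were 408 to 478 CPM in WT and 151 to 261 CPM in TG. None of the markers of fibroblasts (6), skeletal muscle (6), endothelium (5) or T cells (4 tested of 6) passed the threshold in edgeR's quasi-likelihood test, and 3, 0, 1 and 1 of them had an unadjusted p below 0.05. DESeq2 called 2 fibroblast markers higher and the likelihood-ratio test 1 T cell marker. Their part in the levels of the synthesis genes was not tested either.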

How the data were processed

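The 6 libraries were analysed from the raw counts that the authors deposited, with Ensembl identifiers. Reads were mapped to GRCm38 with TopHat2 (2.0.12) and Bowtie2 (2.1.0), per the submitters' processing notes, and uniquely mapped reads were counted with HTSeq, so that reads shared by near-identical genes are missing. The annotation release and strand setting of the counting are not given in the sources used here, and overlapping genes are uncertain. The labels name a total RNA kit and describe mRNA libraries. The filter of 1 CPM or more in 3 or more libraries left 15102 genes, which were scaled by TMM. The main test was edgeR 4.0.16 (glmQLFit and glmQLFTest, R 4.3.3) with genotype as the only term, two-sided, with Benjamini-Hochberg adjustment. It was tested on simulated data. A standard error is the log2 fold change divided by the root of the F statistic. Alternatives were RLE, upper-quartile and no scaling factors, other filters, edgeR's likelihood-ratio test, voom (limma 3.58.1), DESeq2 1.42.0, a replicate block, and fits without each library in turn. Exon lengths and positions came from GENCODE M21. The members and lists were chosen with earlier results of these data known, and no pattern already seen counts as independent support. Values per library are given for members past the threshold and, in a role with none, for the member with the lowest p-value, and for a few others marked as singled out after their values were seen. From a pathway list, genes past the threshold and the 2 with the lowest p-values are named, and from a marker list at most 3 genes past the threshold.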

Additional observations from a re-analysis of the deposited data

How the results depend on the processing

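Of the values recomputed for single members, 455 kept their direction and side of the threshold, 52 came past it, 16 no longer passed it and 2 reversed. Those 2 were of *Insig1*, 0.02 without TG replicate 1 and 0.01 without WT replicate 2, in a range of -0.19 to 0.02 over the fits that left out a library. Each arm's median log2 fold change moved, in every setting, by less than the SD of its median log2 level over the 3 TG libraries. This SD was 0.12 for the sterol enzymes, 0.18 for the regulators and 0.3 for the fatty acid enzymes. Counts of calls moved with the test. Against 288 genes and 3 members (1 sterol and 2 fatty acid enzymes higher), DESeq2 called 1590 genes and 23 members (13 sterol and 7 fatty acid enzymes higher), and the likelihood-ratio test 1568 genes and 15 members (8 and 6 higher). Voom called *Acat2*, *Elovl6* and *Elovl7*. Without the filter on low counts 497 genes and 6 members were called (4 sterol enzymes). Library totals alone gave 444 genes, and upper-quartile scaling 7 members (5 sterol enzymes). RLE scaling, library totals alone and a minimum of 10 counts in every sample each gave 2 sterol enzymes, *Acat2* and *Hsd17b7*. An FDR threshold of 0.1, chosen after seeing the data, gave 1964 genes and 21 members (13 sterol and 5 fatty acid enzymes higher). The cause was not tested.

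Leaving out 1 library gave 0 to 816 genes, 0 to 6 members, 0 to 4 sterol enzymes higher and 0 to 2 fatty acid enzymes higher. No gene was called without WT replicate 2, WT replicate 3 or TG replicate 3, where 2725, 2844 and 3692 genes and 24, 23 and 25 members had an unadjusted p below 0.05. Without TG replicate 1 the members called were *Hsd17b7*, *Me1* and *Fasn* (higher) and *Fads2* (lower), and without TG replicate 2 *Acat2*, *Sqle*, *Msmo1*, *Hsd17b7*, *Elovl6* and *Elovl7*.

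The sources used here name no pairing of the mice by replicate number. Same-numbered libraries had correlations of -0.332, -0.228 and -0.0501 in their deviations from the genotype mean. Between differently numbered libraries the correlations reached 0.269. With 3 libraries per genotype these values cannot decide whether mice were paired. With a replicate block, 0 genes and 0 members passed, including 0 sterol and 0 fatty acid enzymes, and 2949 genes and 25 members had an unadjusted p below 0.05.

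All members passed the filter on low counts in the libraries as deposited, so that none was left out for its depth.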

Other observations

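The counts for pathways that branch from the synthesis arms stand beside 1.91% of all genes tested called in the quasi-likelihood test. DESeq2 called 10.7%, and 26.3% had an unadjusted p below 0.05 in the quasi-likelihood test. Of 10 genes of the isoprenoid branch, which leads from farnesyl diphosphate to ubiquinone, dolichol and prenylated proteins, 0 passed the threshold in edgeR's quasi-likelihood test, 2 had an unadjusted p below 0.05, DESeq2 called 1, and the median log2 fold change was -0.01. The 2 lowest p-values belonged to *Pdss1*, a subunit gene of the synthase of the ubiquinone side chain, with 12.5, 13.7 and 8.66 CPM in WT and 18.5, 20.8 and 20.0 CPM in TG (log2 fold change 0.76 ± 0.17, FDR = 0.0600), and to *Ggps1*, the geranylgeranyl diphosphate synthase gene, with a log2 fold change of -0.22 ± 0.07 (FDR = 0.106). The genotypes did not overlap in either gene.

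Of 13 tested genes of glycerolipid synthesis, which builds triglycerides and phospholipids, 0 passed the threshold in the same test, 3 had an unadjusted p below 0.05, and DESeq2 called 3. The median log2 fold change was 0.11. *Lpin3*, a phosphatidate phosphatase gene, had 58.9, 81.2 and 73.5 CPM in WT and 45.1, 32.5 and 43.7 CPM in TG (log2 fold change -0.82 ± 0.16, FDR = 0.0526), and *Agpat3*, an acyltransferase gene, had a log2 fold change of 0.33 ± 0.09 (FDR = 0.0840).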
